A study of Mus musculus and Rattus norvegicus with 85 samples.

Results

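The comparison set out here is that of lungs from female rats exposed to 30 ppm chloroprene vapour with those exposed to 5 ppm, both after 15 exposure days. The rats were chosen by concentration, time and animal number in the sample titles: rats 241 to 245 at 30 ppm and rats 225 to 229 at 5 ppm, which are 10 of the 40 rat arrays and of 85 arrays in the series of rats and mice. Both groups were F344/NCrl rats (1 label field spells the strain F334/NCrl), 10 weeks old at the start, exposed whole-body in air for 6 hours a day on 5 days a week. The right lung lobes were kept in RNAlater, and RNA of each animal went onto its own Affymetrix rat expression array, which measures transcripts with probe sets near their 3' ends. Every rat in this comparison breathed chloroprene: the 5 ppm rats were the lowest concentration analysed here, 0 ppm rats were not analysed here, and a change is therefore one between 2 exposed groups. The remaining 6 rat groups, each of 5 rats, had 90 or 200 ppm for the same 15 days, or 1 of the 4 concentrations for only 5 days.

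Chloroprene is a chlorinated diene from which neoprene rubber is made. In the lung, cytochromes P450 such as CYP2E1 and the CYP2F enzymes of club cells oxidise it to a reactive epoxide, which is removed by epoxide hydrolase and by conjugation with glutathione. Loss of glutathione and electrophilic products are known to activate the transcription factor NRF2, whose targets include the 2 subunits of glutamate-cysteine ligase (Gclc, Gclm), the quinone reductase Nqo1, glutathione reductase (Gsr), the gastrointestinal glutathione peroxidase Gpx2 and haem oxygenase (Hmox1).

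The arrays carried the genes of a whole lung. Sftpc, the surfactant protein of alveolar type 2 cells, had an array value of 15.00 ± 0.02 at 30 ppm and 15.05 ± 0.03 at 5 ppm on the log2 scale, and Scgb1a1, the secretoglobin of club cells, 15.00 ± 0.06 and 15.04 ± 0.03 (SD, n = 5 each). Rats 226 and 239 stood apart. Rat 226, at 5 ppm for 15 days, lay nearer to the 30 ppm mean than to the mean of its own group for 86 of the 183 genes described below, and rat 239, at 30 ppm for 5 days, lay apart from the other 4 of its group. The sample title of rat 239 has another form than those of these 4, as have the titles of rats 269 and 282 at 200 ppm. The titles do not say what that form stands for. Measures of the RNA and the labelling had unequal means in the 2 groups, and none passed after adjustment. The RNA integrity number given in the labels, which runs up to 10 for intact RNA, was 8.32 ± 0.50 at 30 ppm and 9.02 ± 0.43 at 5 ppm (exact permutation p = 0.0714, adjusted over 4 measures 0.127). The 3' minus 5' difference of the beta-actin control was 0.62 ± 0.11 at 30 ppm and 0.83 ± 0.22 at 5 ppm (exact permutation p = 0.0952, adjusted 0.127), and that of Gapdh -0.12 ± 0.04 and -0.06 ± 0.09 (exact permutation p = 0.143, adjusted 0.143). The mean of the bacterial spike-in controls was 9.66 ± 0.22 at 30 ppm and 9.24 ± 0.30 at 5 ppm (exact permutation p = 0.0556, adjusted 0.127). Its poly-A part, which is added to the RNA before labelling, was 8.83 ± 0.35 and 7.95 ± 0.46 (exact permutation p = 0.0238, and 0.0952 when adjusted with the first 3 measures). All these tests were two-sided over the 252 splits of 5 against 5, whose smallest p is 0.00794.

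Nfix, glutathione reductase (Gsr) and Nfe2l1 were higher in the lungs of 30 ppm rats, and Nek1, Ryr3 and Nrp1 were lower. Of 11010 genes tested, 183 (1.66%) passed an adjusted p of 0.05 in limma's moderated test with Benjamini-Hochberg adjustment: 126 rose (1.14%) and 57 fell (0.518%). The changes were small. The median rise was 0.35 and the median fall -0.35 on the log2 scale, 29 genes (0.263%) passed with a change of at least 1.5-fold, and the median over all genes was 0.03. In 110 of the 183 genes the 5 rats at 30 ppm and the 5 at 5 ppm did not overlap, which was so for 5.42% of all genes tested. The count moved with the arrays in the fit, with single animals and with the RNA measures. The fit over all 40 rat arrays shares 1 estimate of the spread per gene. With the 20 arrays of 15 days alone the count was 59, and with the 10 arrays of these 2 groups alone it was 0. It was 2 without rat 225, 9 to 85 without any one of rats 227, 228, 229, 241, 242, 243 and 245, 201 without rat 244 and 415 without rat 226. With the RNA integrity number, the 3' minus 5' difference or the poly-A spike-in mean as a covariate no gene passed. At an unadjusted p under 0.05 those fits had 1868, 714 and 824 genes, against 2831 (25.7%) without a covariate. In bulk lung, fewer cells of a type cannot be told apart from less RNA per cell.

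Among the rises, Nfix, a transcription factor of the nuclear factor I family, changed most. Its array values in rats 241 to 245 at 30 ppm were 9.46, 9.25, 9.16, 8.999 and 9.06, and in rats 225 to 229 at 5 ppm 6.88, 8.996, 7.10, 7.75 and 7.96. All the 5 ppm rats but rat 226 lay far below every 30 ppm rat, and rat 226 lay just below the lowest of them. Nfix was 2.73-fold higher at 30 ppm, a log2 change of 1.45 ± 0.29 (SE; limma adjusted p = 0.0144), and 1.77 without rat 226. A second probe set of Nfix gave 0.26 ± 0.07 (adjusted p = 0.0306 over all probe sets).

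Gsr, which regenerates reduced glutathione from its oxidised form, had values of 8.82, 8.80, 8.25, 8.41 and 8.73 in the 30 ppm rats. In the 5 ppm rats it had 7.06, 8.30, 7.29, 7.40 and 7.54. Rat 226 was the only 5 ppm rat that reached the range of the 30 ppm rats. The log2 change was 1.09 ± 0.23, or 2.12-fold (limma adjusted p = 0.0170), and 1.28 without rat 226. With the 3' minus 5' difference as a covariate the change of Gsr was 0.60 and did not pass.

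Nfe2l1, a relative of NRF2 that controls proteasome genes, stood at 9.98, 9.51, 9.52, 9.44 and 9.87 in the 30 ppm rats. It stood at 8.52, 9.45, 8.69, 8.81 and 8.82 in the 5 ppm rats. The groups overlapped through rat 226 alone, and the log2 change was 0.81 ± 0.14 (limma adjusted p = 0.0128). Its 2 other probe sets gave 0.49 and 0.17. Of the 34 genes named here that passed, Nfe2l1 lost the call in the fewest fits that left out 1 rat: it did so only without rat 225 (adjusted p = 0.0720). Calb2, a calcium-binding protein of mesothelial cells, lost it without rat 241 or rat 225 (highest adjusted p = 0.0757). The other 32 lost it in 4 to 9 of the 10 such fits, so none of the 34 passed in all of them.

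Crim1, Bhlhe40 and Id3 also rose. Crim1, a membrane protein that binds bone morphogenetic proteins, was 1.08 ± 0.29 higher (limma adjusted p = 0.0488), Bhlhe40, a repressor that feeds back on the circadian clock, 0.95 ± 0.24 (0.0411), and Id3, an inhibitor of basic helix-loop-helix factors, 0.79 ± 0.21 (0.0463). Bhlhe40 had 8.52, 8.49, 8.20, 8.60 and 8.79 in the 30 ppm rats and 7.28, 8.39, 7.40, 7.24 and 7.56 in the 5 ppm rats, so that rat 226 again lay inside the 30 ppm range. Clec3b and Plau each rose on both of their probe sets. Clec3b, the plasminogen-binding lectin tetranectin, was 0.93 ± 0.22 higher (limma adjusted p = 0.0358), with a second probe set at 0.89. Plau, the urokinase that activates plasminogen, was 0.79 ± 0.21 higher (0.0476), with a second probe set at 0.95. The remaining large rises were Myo10, a myosin of filopodia (0.81), the small GTPase Rap2b (0.78), the F-box protein Fbxo46 (0.78) and Gigyf1, a translational repressor (0.82). The second probe set of Gigyf1 was at -0.01, so its probe sets disagree. Rap2b averaged 6.63 at 30 ppm and 5.85 at 5 ppm, both below 6.65, the level of the probe set filter. Only rats 241, 244 and 245 at 30 ppm, rat 226 at 5 ppm and rat 257 at 90 ppm exceeded that level. Rap2b was thus tested mainly through the group where it was high, and the size of its rise is uncertain.

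Nek1, a kinase of primary cilia and the DNA damage response, fell most among the genes that passed. Its values were 5.48, 5.41, 6.20, 6.19 and 5.46 in the 30 ppm rats. They were 7.58, 6.08, 7.70, 6.98 and 7.77 in the 5 ppm rats. Rat 226 lay among the 30 ppm rats and the other 4 of its group above them all. The log2 change was -1.47 ± 0.32 (limma adjusted p = 0.0241). The mean of the 30 ppm rats for Nek1 was below 6.65, the level below which probe sets were filtered, as it was for 5 of the 57 genes that fell, so the size of these falls is uncertain.

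Ryr3, a calcium release channel, had 6.23, 6.15, 6.67, 6.88 and 6.29 in the 30 ppm rats and 7.81, 7.04, 7.81, 7.005 and 7.69 in the 5 ppm rats. The groups did not overlap, and the log2 change was -1.03 ± 0.25 (limma adjusted p = 0.0365). The 30 ppm mean of Ryr3, 6.44, was below the filter level of 6.65, so the size of its fall is uncertain too. Nrp1, a co-receptor for vascular endothelial growth factor and semaphorins, had 11.49, 11.45, 11.62, 11.62 and 11.39 in the 30 ppm rats. It had 12.30, 11.87, 12.23, 12.14 and 12.34 in the 5 ppm rats. Every 30 ppm rat was below every 5 ppm rat, by a mean of -0.66 ± 0.16 (limma adjusted p = 0.0358). A second Nrp1 probe set gave -0.25 and did not pass. The other large falls were Ube3al1 (-1.09), the centrosomal protein Cep95 (-0.88), the long non-coding RNA Ftx of the X-inactivation centre (-0.74), the RNA-binding protein Caprin2 (-0.66), the actin-binding kelch protein Ipp (-0.53), Rabgap1, which stimulates GTP hydrolysis by Rab proteins (-0.53), the ADP-ribosyltransferase family member Parp8 (-0.49), Gkap1 (-0.49) and the catenin relative Ctnnal1 (-0.48). One of 2 other probe sets of Gkap1 was at 0.04. The 30 ppm means of Cep95 (6.43) and Ftx (6.03) also lay below the filter level of 6.65. Rat 226 lay within the range of the 30 ppm rats for Nek1, Ube3al1, Ftx, Rabgap1 and Gkap1, and above all of them for Ryr3, Cep95, Nrp1, Caprin2, Ipp, Parp8 and Ctnnal1.

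**Figure D1:**
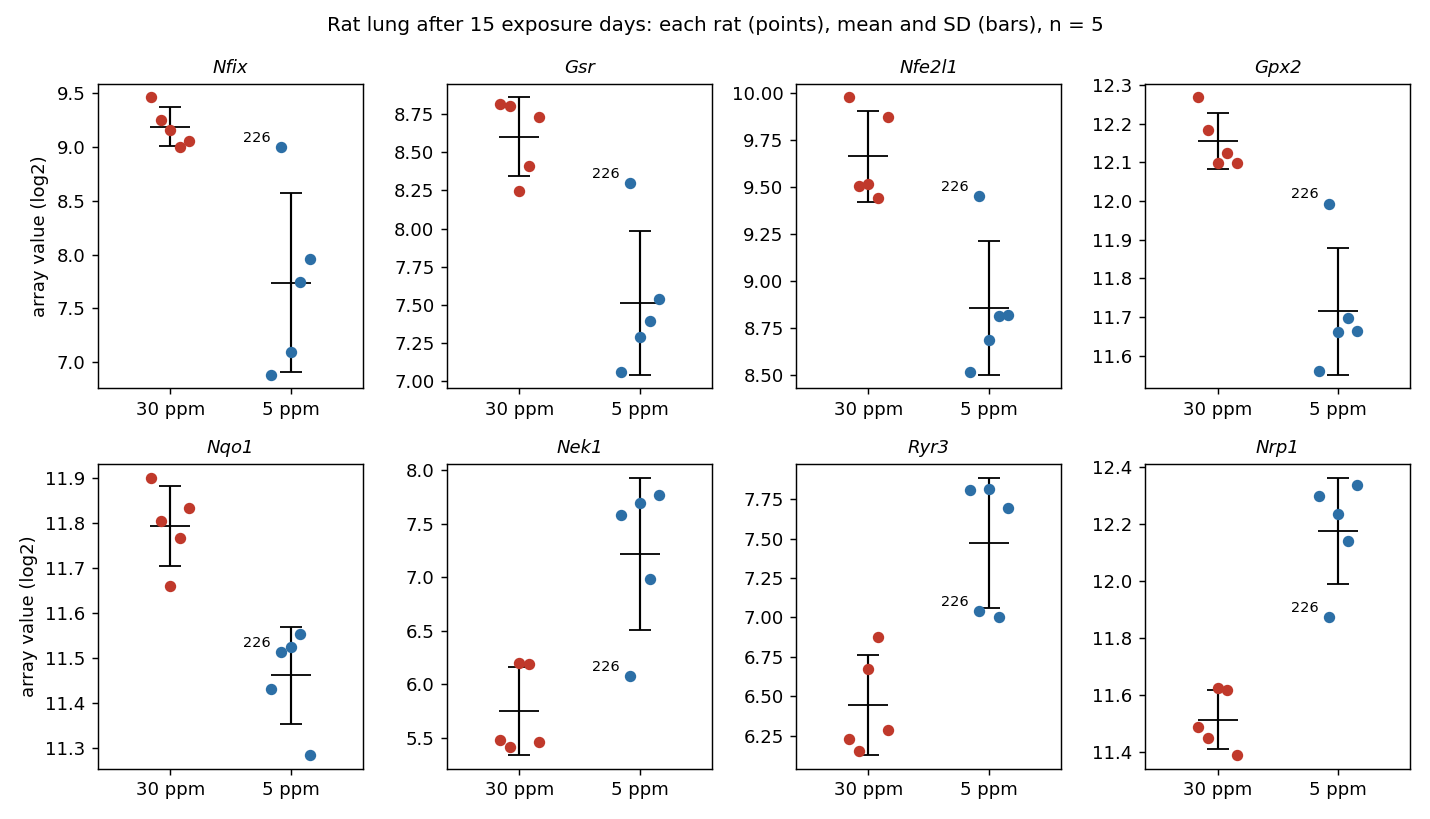
Array values (log2) of 8 genes in each of 5 rats at 30 ppm (red, left) and 5 rats at 5 ppm (blue, right) after 15 exposure days, with mean and SD as bars. Rat 226 of the 5 ppm group is marked. It lies next to the 30 ppm rats for Nfix, Gsr, Nfe2l1 and Nek1, while for Nqo1, whose change of 0.33 did not pass, it lies with its own group.

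Glutathione genes were mostly above 0 in the 30 ppm rats, and the enzymes that make glutathione differed little. Of 28 measured genes of glutathione synthesis and conjugation, 3 rose (Gsr, Gstt2 and Chac1) and none fell, 26 were above 0, and the median change was 0.23, beside 0.03 over all genes and a share of 1.14% of all genes that rose. Gstt2, a theta-class glutathione transferase, rose by 0.50 ± 0.13 (limma adjusted p = 0.0445), with a second probe set at 0.01, and Chac1, which breaks glutathione down, by 0.28 ± 0.07 (0.0463). Of all genes 56.7% were above 0. At an unadjusted p under 0.05, 12 of the 28 were higher and none lower, against 10.2% and 15.5% of all genes. Gstp1 (0.39, adjusted p = 0.0927) and Gstm7 (0.34, 0.0961), transferases of the pi and mu classes, were the next by p. Gclc, the catalytic subunit that limits glutathione synthesis, had 8.88, 8.91, 8.82, 8.94 and 8.78 in the 30 ppm rats and 8.80, 8.74, 8.86, 8.94 and 8.70 in the 5 ppm rats. The 2 groups of Gclc values overlapped almost wholly, with a log2 change of 0.06 ± 0.08 (limma adjusted p = 0.712). Gclm, the modifier subunit, changed by 0.03 ± 0.10 (0.860).

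Of 27 measured NRF2 targets, 2 rose (Gsr and Gpx2), none fell and 24 were above 0, with a median of 0.19. Of all genes 1.14% rose and 56.7% were above 0, with a median of 0.03. At an unadjusted p under 0.05, 5 of the 27 were higher and none lower, against 10.2% and 15.5% of all genes. Gsr is a member of the glutathione list too, so the 2 lists are not separate evidence. Gpx2, which reduces hydroperoxides with glutathione, had 12.27, 12.18, 12.10, 12.12 and 12.10 in the 30 ppm rats and 11.56, 11.99, 11.66, 11.70 and 11.66 in the 5 ppm rats. All 30 ppm rats were above all 5 ppm rats, and the log2 change was 0.44 ± 0.09 (limma adjusted p = 0.0170). Nqo1 had 11.90, 11.81, 11.66, 11.77 and 11.83 in the 30 ppm rats and 11.43, 11.51, 11.52, 11.55 and 11.28 in the 5 ppm rats. Those groups did not overlap either, but the change of 0.33 ± 0.10 did not pass (limma adjusted p = 0.0825). Hmox1 changed by 0.27 ± 0.14 (0.226), Txnrd1, a thioredoxin reductase, by 0.22 (0.0947), and Srxn1, which repairs oxidised peroxiredoxins, by 0.38 (0.142).

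The enzymes that activate or hydrolyse chloroprene did not pass. Of 22 measured genes of xenobiotic oxidation and hydrolysis none passed, and their median was 0.06. Cyp2e1 averaged 9.14 ± 0.22 at 30 ppm and 9.21 ± 0.09 at 5 ppm (SD, n = 5 each), a change of -0.07 ± 0.13 (SE; limma adjusted p = 0.784). Cyp2f4, the CYP2F gene of the rat, had 11.50, 11.10, 11.46, 11.14 and 9.88 in the 30 ppm rats and 10.49, 10.58, 10.70, 11.26 and 10.66 in the 5 ppm rats. Rat 245 was low and rat 228 high for Cyp2f4, and the change of 0.28 ± 0.38 did not pass (0.699). Ephx1, the microsomal epoxide hydrolase, changed by 0.17 ± 0.12 (0.389). The aryl hydrocarbon receptor targets (7 measured, median 0.03) and the p53 targets (16 measured, median 0.01) held no gene that passed. Cdkn1a, the p53-induced inhibitor of the cell cycle, changed by 0.08 ± 0.10 (0.665).

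Elsewhere single genes of a list passed, where 1.14% of all genes rose, so that 1 call in a list of this size is near the background. Ccnd1, the cyclin of the early cell cycle, rose by 0.52 ± 0.14 (limma adjusted p = 0.0498), the 1 gene of 30 measured cell cycle genes that passed; Mki67 was below the filter. Cox5b, a subunit of cytochrome c oxidase, rose by 0.44 ± 0.10 (0.0269) as 1 of 21 genes of oxidative phosphorylation, and Ebp, a sterol isomerase, by 0.38 ± 0.10 (0.0441) as 1 of 19 of cholesterol synthesis. No gene passed among 25 of DNA repair (median -0.07), 18 heat shock chaperones (median -0.10), 28 of the interferon response (median 0.06), 18 inflammatory cytokines and chemokines (median 0.13) and 25 immediate early genes (median 0.08).

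Markers of cell types gave few calls, again near the 1.14% of all genes that rose. The mucous cell trefoil peptide Tff3 rose by 0.27 ± 0.07 (limma adjusted p = 0.0463), the B cell chemokine receptor Cxcr5 by 0.33 ± 0.09 (0.0487), the tetraspanin Cd9 by 0.38 ± 0.08 (0.0188) and the mesothelial Calb2 by 0.37 ± 0.07 (0.0144). Each was the 1 member of its list that passed, of 8 mucous and goblet cell (median 0.32), 13 B and plasma cell (median 0.13), 18 alveolar macrophage and 12 mesothelial genes. The last 2 lists lay mostly below 0: 6 of the 18 alveolar macrophage genes were above 0 (median -0.05) and 4 of the 12 mesothelial genes (median -0.06). The medians of the epithelial lists were -0.05 for alveolar type 2 cells (17 measured), -0.05 for type 1 cells (16), 0.24 for club cells (12) and 0.08 for ciliated cells (17), with no gene past the threshold. The 16 genes of monocytes and interstitial macrophages had a median of 0.20 and no call, with list means per rat of 9.12 to 9.38 at 30 ppm and 8.87 to 9.20 at 5 ppm. Its members Fcgr3a, an Fc receptor, and Aif1 were at 0.48 (adjusted p = 0.0617) and 0.40 (0.118). Neutrophil genes (6 measured) had a median of 0.33 and no call, with list means of 8.56 to 9.33 at 30 ppm and 8.14 to 8.97 at 5 ppm. The 11 cardiac muscle genes had a median of 0.24 and no call, with list means of 6.52 to 7.45 at 30 ppm and 6.09 to 7.15 at 5 ppm. The part of these cell types in the results was not tested. The club cell list also holds Kdr, which is better known from endothelial cells.

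**Figure D2:**
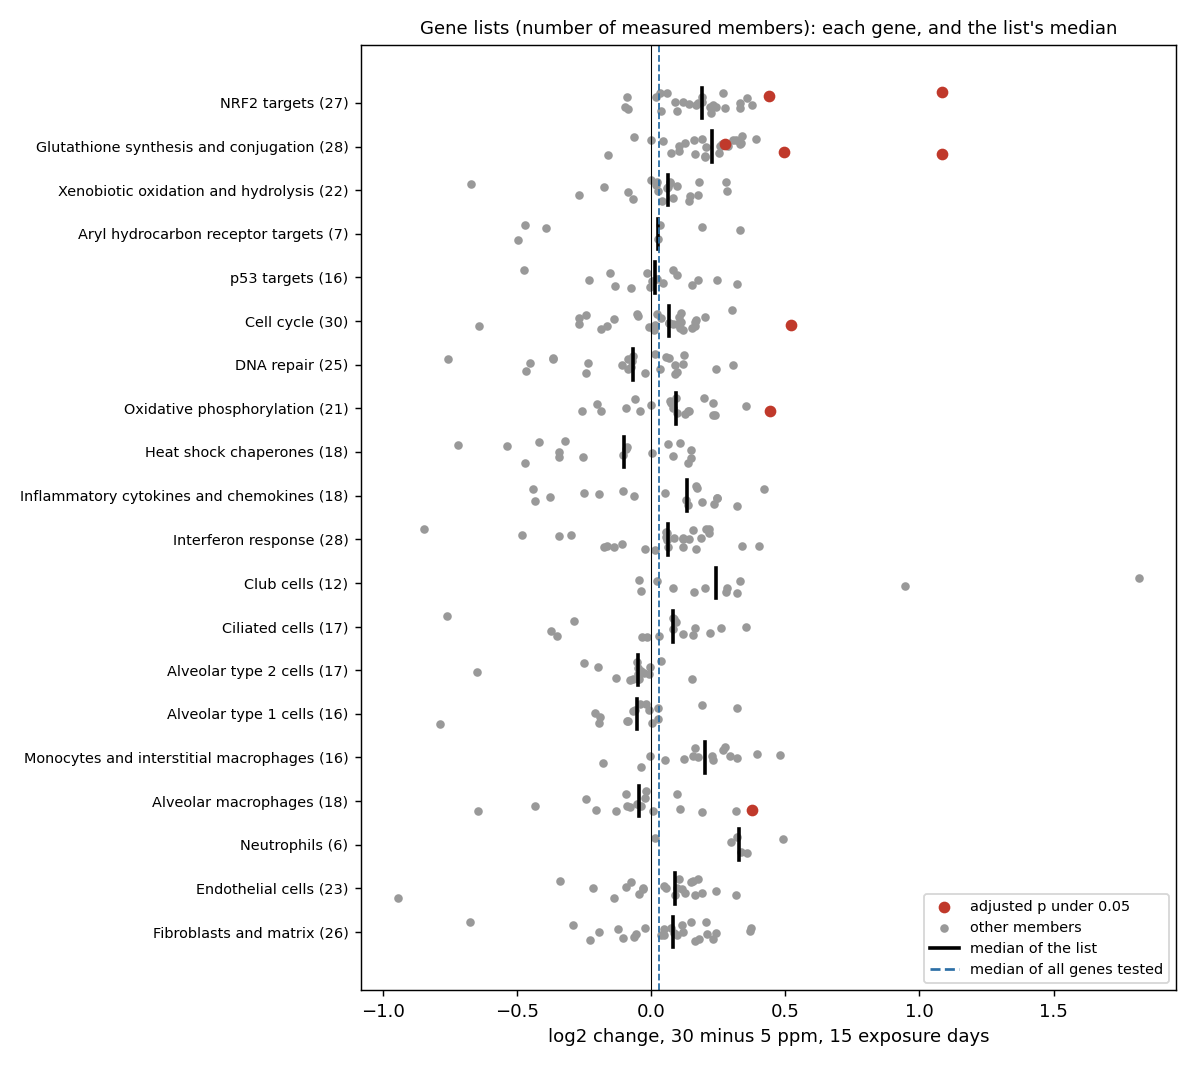
Log2 change from 30 ppm minus 5 ppm after 15 exposure days (horizontal axis) for every measured member of 20 gene lists, 1 list to a row, with the number of measured members in brackets. Red points passed the threshold, black bars are list medians and the dashed line is the median of all genes (0.03). The glutathione list (median 0.23) and the NRF2 list (0.19) lie to its right, and the rightmost point of the club cell row, Bpifa1 at 1.82, did not pass.

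At 90 and 200 ppm Nfix and Gsr had means near those at 30 ppm, and Gclc was higher at 200 ppm. From 5 to 30, 90 and 200 ppm after 15 days, Nfix averaged 7.74 ± 0.83, 9.19 ± 0.18, 9.13 ± 0.25 and 9.10 ± 0.17, and Gsr 7.52 ± 0.47, 8.60 ± 0.26, 8.62 ± 0.34 and 8.65 ± 0.24 (SD, n = 5 each). Gclc averaged 8.81 ± 0.10, 8.87 ± 0.06, 9.10 ± 0.13 and 9.33 ± 0.22, and Gclm 8.53 ± 0.17, 8.57 ± 0.11, 8.72 ± 0.18 and 8.96 ± 0.19. Nqo1 averaged 11.46 ± 0.11, 11.79 ± 0.09, 11.84 ± 0.15 and 12.11 ± 0.13. The test of the difference itself, added after the data were seen, found no gene that differed between 90 and 30 ppm in limma at an adjusted p of 0.05 (122 genes, or 1.11%, at an unadjusted p under 0.05) and 2 between 200 and 30 ppm (0.0182%; 527, or 4.79%, unadjusted). These 2 were Gclc, 0.46 ± 0.08 higher at 200 ppm (limma adjusted p = 0.0312), and Akr1b8, an aldo-keto reductase, at 10.54 ± 0.34 at 200 ppm and 9.82 ± 0.13 at 30 ppm (0.72 ± 0.14, adjusted p = 0.0312); Akr1b8 was picked after its value was seen. Both calls were lost without any one of the 5 rats at 30 ppm; no fit left out a 90 or 200 ppm rat. For Nfix the difference of 90 minus 30 ppm was -0.06 ± 0.29 and for Gsr 0.02 ± 0.23 (SE). Differences of up to about 2 such SEs in either direction cannot be told from none. The array measures had a like shape. From 5 to 30, 90 and 200 ppm after 15 days, the poly-A spike-in mean averaged 7.95, 8.83, 8.77 and 8.77. The beta-actin 3' minus 5' difference averaged 0.83, 0.62, 0.62 and 0.56, and the RNA integrity number 9.02, 8.32, 8.42 and 8.50. The part of these measures in the steps from 5 ppm was not tested.

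**Figure D3:**
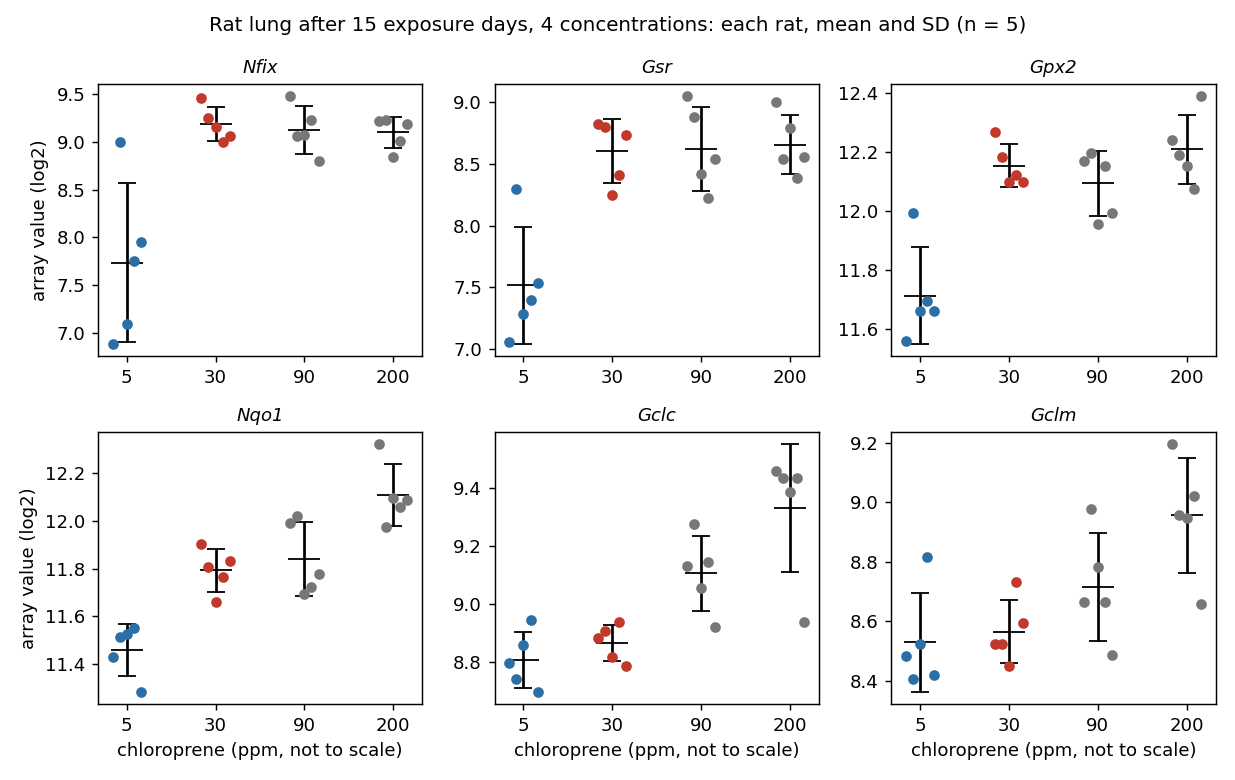
Array values (log2) of 6 genes in single rats after 15 exposure days, with mean and SD as bars, by chloroprene concentration (5, 30, 90 and 200 ppm, spaced evenly and not to scale). Nfix, Gsr and Gpx2 at 30 ppm lie near their levels at 90 and 200 ppm, whereas the means of Gclc and Gclm at 30 ppm lie within 0.1 of those at 5 ppm and are highest at 200 ppm.

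Against the same 5 ppm rats, 34 genes (0.309%) passed at 90 ppm and 90 (0.817%) at 200 ppm. Because those comparisons share the 5 ppm rats, rat 226 among them, the values of a gene are given side by side and not counted as repeats. The change of Nfix was 1.45, 1.39 and 1.36 at 30, 90 and 200 ppm, that of Nek1 -1.47, -1.33 and -1.14, that of Nrp1 -0.66, -0.48 and -0.56, and that of Gpx2 0.44, 0.38 and 0.50. The median change of the 126 genes that rose at 30 ppm was 0.24 at 90 ppm and 0.21 at 200 ppm. For the 57 that fell the medians were -0.27 and -0.28. At 30 ppm the medians were 0.35 and -0.35, but the 30 ppm change chose these genes. Smaller medians at the other concentrations can follow from that choice, so they are a description and show no trend with concentration.

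After 5 exposure days the same concentrations gave another picture in other rats. No gene passed for 30 against 5 ppm (0%) in limma, with 1477 (13.4%) at an unadjusted p under 0.05 and 281 passing without rat 239. Gsr had 7.41, 6.82, 7.43, 7.50 and 8.61 in the 30 ppm rats 233, 234, 236, 237 and 239 and 8.26, 8.00, 7.40, 8.33 and 8.15 in the 5 ppm rats 217, 219, 220, 221 and 222. The 30 ppm rats other than rat 239 were thus among the lowest and rat 239 was the highest of the 10, with a mean change of -0.47 (adjusted p = 0.366). Nek1 had 7.81, 7.68, 7.77, 8.30 and 5.70 in those 30 ppm rats and 6.05, 6.57, 7.04, 7.01 and 6.70 in the 5 ppm rats, where again rat 239 alone lay on the other side.

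The difference between the times was tested directly. The change of 30 against 5 ppm differed between 15 and 5 days for 423 genes (3.84%), more positive at 15 days for 280 (2.54%) and more negative for 143 (1.30%), and all 423 had opposite signs at the 2 times. Without single rats of the 4 groups the count ran from 89 (without rat 234) to 4144 (without rat 239), and with the RNA integrity number, the 3' minus 5' difference or the poly-A mean as a covariate it was 0, 5 and 12. Of the 183 genes that passed at 15 days, 110 also passed this test and 144 had the opposite sign at 5 days, a description since the 15-day change chose them. The smallest p-values belonged to Sesn3, a sestrin of the stress response (change of 0.47 at 15 days and -0.46 at 5 days, limma adjusted p = 0.000475), the phospholipase Ddhd1 (0.41 and -0.33, 0.000488), Nfe2l1 (0.81 and -0.41, 0.00227) and the nuclear transport factor Nutf2 (0.53 and -0.46, 0.00227). In the other direction they were Foxred1, an assembly factor of respiratory complex I (-0.32 and 0.17, 0.00288), Parp8 (-0.49 and 0.24, 0.00652), Nek1 (-1.47 and 0.78, 0.00726) and the chromatin remodeller Chd8 (-0.34 and 0.19, 0.0110). Nqo1 had the same sign at both times, 0.33 and 0.24, and the difference did not pass (0.648). Across the 11010 genes the changes at the 2 times correlated at -0.69 (Pearson) and -0.52 (Spearman), and 71.6% had opposite signs. Genes measured on the same 20 arrays are not independent, so these numbers describe the arrays and carry no p.

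**Figure D4:**
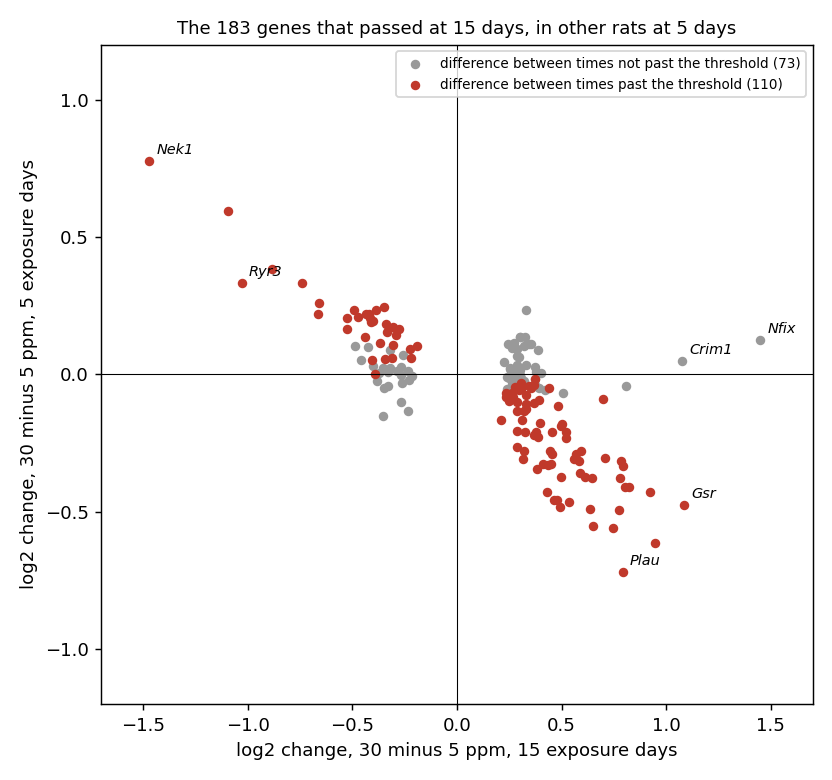
The 183 genes that passed at 15 days: log2 change of 30 minus 5 ppm after 15 exposure days (horizontal axis) against that after 5 exposure days in other rats (vertical axis). Red points are the 110 genes whose difference between the times passed the threshold. The upper left and lower right parts hold 144 of the genes; Nfix and Crim1 are among those that do not have opposite signs.

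The level of the 183 genes also varied between rats of 1 group. With the falls turned round, their mean, relative to the mean of all 40 arrays, was 0.14 to 0.29 in the 30 ppm rats and -0.35 to -0.19 in 4 of the 5 ppm rats, but 0.03 in rat 226. The number of the 183 genes nearer to the 30 ppm mean than to the 5 ppm mean was 164 to 183 in the 30 ppm rats, 86 in rat 226 and 0 to 6 in the other 5 ppm rats. The 3' minus 5' difference of beta-actin was 0.46 to 0.75 in the 30 ppm rats, 0.48 in rat 226 and 0.76 to 1.02 in the other 5 ppm rats. The RNA integrity number after 15 days was 7.5 to 8.7 in the 30 ppm rats, 8.5 in rat 226 and 8.6 to 9.4 in the other 5 ppm rats. Among the 5-day rats, on which the 183 genes were not chosen, 4 of the 30 ppm rats had a mean of -0.27 to -0.21 with beta-actin differences of 0.89 to 1.01, and rat 239 had 0.17 with 0.56. The 5 ppm rats of that time ran from -0.11 to 0.09 with differences of 0.52 to 0.96. The RNA integrity number did not follow the gene level in this way after 5 days: it was 9.2 in rat 239, 9.3, 8.3 and 9.3 in the 30 ppm rats 234, 236 and 237, and 7.3 to 8.5 in the 5 ppm rats. The 1st component of the variation within groups held 64.8% of it. Each array's score on it lay between -4.47 and 32.6 at 30 ppm and between -20.0 and 17.9 at 5 ppm. With this score as a covariate, added after the data were seen, 1189 genes passed, 245 higher and 944 lower. The score was taken from the variation of the same genes that were then tested. That count is therefore no independent check and cannot be set beside those with the RNA measures as covariates.

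**Figure D5:**
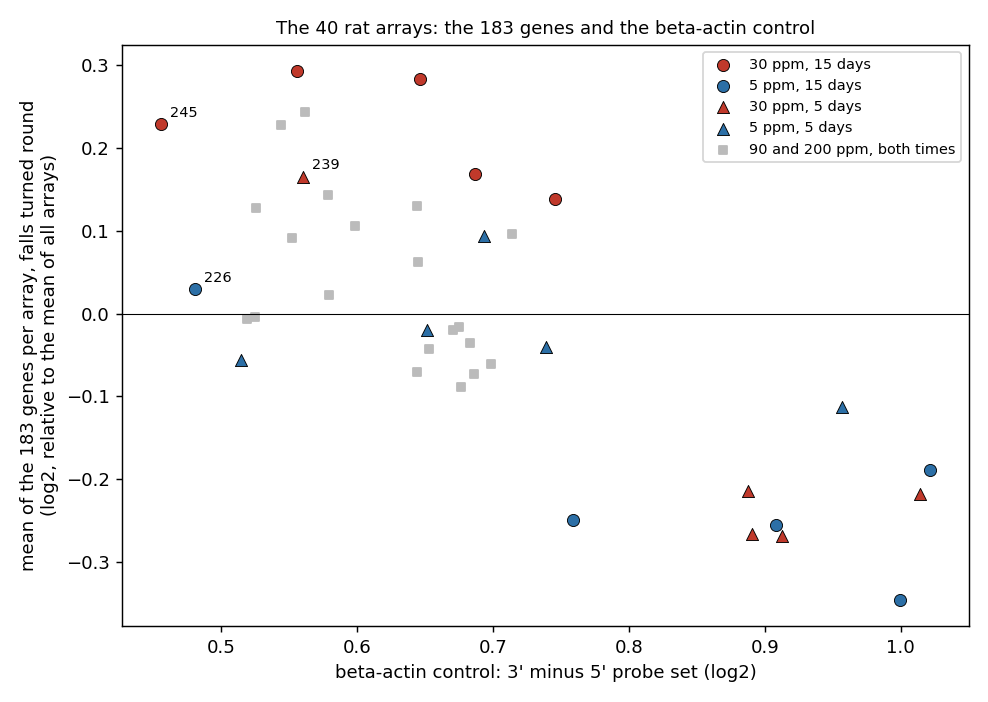
Each of the 40 rat arrays by the 3' minus 5' difference of its beta-actin control (log2, horizontal axis) and the mean of the 183 genes with falls turned round (log2, vertical axis, relative to the mean of all arrays). Red marks 30 ppm, blue 5 ppm, circles 15 days, triangles 5 days and grey squares the 90 and 200 ppm rats. Arrays below 0 on the vertical axis span beta-actin differences from 0.52 to 1.02; rat 226 lies at 0.48 and 0.03, and rat 239 at 0.56 and 0.17.

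The share of calls depended on which probe sets were tested. With every non-control probe set tested one by one, 1761 of 31042 (5.67%) passed, 1361 higher (4.38%) and 400 lower (1.29%). Of these, 685 were among the 15109 probe sets with 1 gene symbol that the filter kept (4.53%), 479 higher and 206 lower. A further 368 were among 5717 named ones that it did not keep (6.44%) and 684 among 9780 with no symbol (6.99%). The last 24 were among 436 with several symbols (5.50%). Quantile normalisation between arrays gave 283 genes, 246 higher and 37 lower, where the values as deposited gave 126 higher and 57 lower.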

How the data were processed

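Each array is 1 rat. The log2 values per probe set are those the authors deposited; their summarisation and normalisation are not given in the sources used here. Per the labels, total RNA came from a Trizol step followed by a Qiagen kit, and labelling followed Affymetrix. Values ran from 3.07 to 15.1. Of 31099 probe sets, 57 controls, 436 with several symbols and 9780 with none were left out of gene tests. Probe sets above the 40th percentile (6.65) on at least 5 arrays were kept (15109), and the kept probe set with the highest mean stood for each of 11010 genes.

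A mean per group was fitted over all 40 rat arrays with limma 3.58.1 in R 4.3.3 (eBayes, two-sided, Benjamini-Hochberg over all genes, threshold 0.05). The steps were tested on simulated data in which each gene varied independently. In the real arrays 1 component held 64.8% of the variation within groups. The simulation therefore does not show how many false calls such shared variation gives. Precision is limited by the number of arrays; the median SE of a change was 0.11. The mouse arrays were not used. Rat gene names are those of the array annotation.

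The comparison, the 43 gene lists (937 genes, textbook knowledge) and the tests were chosen with earlier results of these data known. Named genes were the 12 largest rises and falls that passed, without symbols of unnamed models, the 2 members with the smallest p of each list with an unadjusted p under 0.05, 10 fixed genes of chloroprene metabolism and its response, and for the difference between times up to 4 genes per direction by smallest p. The 90 and 200 against 30 ppm comparisons and 2 covariates, the poly-A spike-in mean and the between-array score, were added after the data were seen. Fits with the RNA integrity number leave out 2 rats of the 5-day groups that have none.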

Additional observations from a re-analysis of the deposited data

Results flagged for a closer look

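In 10 of 214 groups of 5 rats examined, 1 rat lay far from the other 4, where chance gives about 1 group in 20. The groups are genes read on the same 10 arrays and are not independent, so their number was not tested against that rate. Rat 226, at 5 ppm, was the far rat in 4 of the 10 groups: Bhlhe40 at 8.39 (the others 7.24 to 7.56), Gigyf1 at 8.92 (7.78 to 8.10), Socs1 at 6.93 (6.49 to 6.59) and Cxcr5 at 9.82 (9.52 to 9.60). Rat 245, at 30 ppm, was far for Crim1 at 8.97 (9.28 to 9.35), S100a8 at 11.89 (10.87 to 11.11) and Cyp2f4 at 9.88 (11.10 to 11.50). Rat 228, at 5 ppm, was high for Cyp2f4 at 11.26 (10.49 to 10.70) and Gclm at 8.82 (8.41 to 8.52), and rat 229 low for RT1-DMa at 9.33 (9.58 to 9.67).

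For 39 named genes the change of 30 against 5 ppm differed between the times in limma's test of the difference (adjusted p under 0.05). Over all genes 3.84% did. Most of the 39 were named for their 15-day change, which is a part of this difference. Sesn3, Ddhd1, Nutf2, Foxred1 and Chd8 were named for their small p in this very test. The 39 genes are therefore a description and no support for a difference between the times. The 15-day change minus the 5-day change, on the log2 scale, was positive for Gsr 1.56, Bhlhe40 1.56, Plau 1.51, Clec3b 1.35, Gigyf1 1.23, Nfe2l1 1.21, Rap2b 1.15, Id3 1.12, Fcgr3a 1.10, Fbxo46 1.10, Nutf2 1.00, Sesn3 0.92, Ddhd1 0.74, Ebp 0.73, Ccnd1 0.73, Cox5b 0.72, Aif1 0.71, Gstt2 0.69, Cdh3 0.66, RT1-Db1 0.60, Cd9 0.59, Plin2 0.54, Gpx2 0.49, Atf4 0.48 and Aqp5 0.40. It was negative for Nek1 -2.25, Ube3al1 -1.69, Ryr3 -1.36, Cep95 -1.27, Ftx -1.08, Caprin2 -0.92, Nrp1 -0.88, Rabgap1 -0.73, Parp8 -0.73, Ipp -0.69, Ctnnal1 -0.68, Chd8 -0.53, Foxred1 -0.49 and Tek -0.47. With the RNA integrity number, the 3' minus 5' difference or the poly-A mean as a covariate, 0, 5 and 12 of all genes passed this test.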

How the results depend on the processing

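Settings moved the counts of genes, while few named genes changed sign. The balance of rises and falls moved too, as given above for quantile normalisation and the between-array score. For 30 against 5 ppm after 15 days, where 183 genes passed, 422 passed with no filter, 41 with the filter at the 60th percentile, 283 after quantile normalisation, 59 with the 20 arrays of 15 days alone, 1761 with all probe sets one by one and 1189 with the between-array score as covariate. The score comes from the variation of the genes tested, so no count with it is an independent check. For the same comparison the count was 0 with the RNA integrity number, the 3' minus 5' difference or the poly-A mean as covariate and 0 with the 10 arrays alone (3518 at an unadjusted p under 0.05), and ran from 2 to 415 without single rats; the cause was not tested. Of the 103 named genes 34 passed; 9 did with the filter at the 60th percentile, which leaves some untested, 18 with the arrays of 15 days alone, 0 with each of the 3 covariates and with the 10 arrays alone, and 0 to 40 without single rats. For 30 against 5 ppm after 5 days the count was 0 to 281. The difference between the times, 423 genes, gave 827 after quantile normalisation, 0, 5, 12 and 250 with the integrity number, the 3' minus 5' difference, the poly-A mean and the score as covariates, and 89 to 4144 without single rats. For 90 against 5 ppm (34 genes) these covariates gave 0, 0, 2 and 545, and for 200 against 5 ppm (90 genes) 20, 3, 14 and 1306, with 148 for the mean of all probe sets of a gene. For 90 against 30 ppm (0 genes) no filter gave 1, and fits without 1 rat of the 15-day 30 or 5 ppm groups gave 0. For 200 against 30 ppm (2 genes) quantile normalisation gave 1, the integrity number 0, the 3' minus 5' difference 4, the 15-day arrays 0, the score 66, and fits without 1 rat of those groups 0 to 2; no 90 or 200 ppm rat was left out.

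Signs turned in few named genes, with the cause not tested: with the mean of all probe sets Tiparp (0.058) and Sftpb (0.38); with the 3' minus 5' difference Cdkn1a (-0.0077); with the poly-A mean RT1-DMa (-0.027), Acadm (0.0068), S100a8 (-0.064), Gclm (-0.064) and Cdkn1a (-0.045); with the score Gclm (-0.051) and Cdkn1a (-0.067); and without single rats Cyp2e1 (-0.133 to 0.0023, the upper end without rat 243) and Gclm (-0.00644 to 0.106, the lower end without rat 244). Other probe sets of the gene had the opposite sign for Gigyf1 (-0.013), Gkap1 (0.044), Tiparp (0.59), Hsf2 (0.14), Acaca (0.034), Plin2 (-0.15), Rfx3 (0.0088), Sftpb (0.88), Ppp1r14c (0.0031) and Col5a1 (-0.014). Among the 34 genes that passed, only these probe sets of Gigyf1 and Gkap1 turned a sign. The hybridisation spike-in controls alone differed by -0.19 (30 minus 5 ppm), against 0.42 for all spike-ins. No paired analysis was possible because the groups share no animal number.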

Other observations

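Some large changes did not pass. Of the 90 genes that changed by at least 1 on the log2 scale without passing, 86 were lower at 30 ppm and 4 higher, and those named here were chosen after their values were seen. Zfp386, a zinc finger gene, had 5.95, 5.72, 7.67, 7.18 and 6.33 in the 30 ppm rats 241 to 245 and 8.96, 7.35, 8.41, 7.26 and 9.21 in the 5 ppm rats 225 to 229 (log2 change -1.67, limma adjusted p = 0.0790). Ptprc, the leukocyte surface phosphatase CD45, had 8.53, 8.33, 10.21, 9.70 and 8.71 in the 30 ppm rats and 11.01, 9.68, 10.47, 9.39 and 10.84 in the 5 ppm rats (-1.18, adjusted p = 0.0959). Smc3, a subunit of cohesin, was at -1.02 (adjusted p = 0.125). In these genes rats 241, 242 and 245 were the lowest at 30 ppm, and rats 226 and 228 the lowest at 5 ppm. Rats 241, 242 and 245 had the highest between-array scores at 30 ppm and rats 226 and 228 the highest at 5 ppm. The part of these scores in the falls was not tested gene by gene.

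The largest rise of all was that of Bpifa1, an airway secretory protein, at 13.54, 8.49, 8.49, 8.23 and 7.70 in the 30 ppm rats and 7.19, 6.80, 8.85, 7.26 and 7.26 in the 5 ppm rats. Rat 241 alone made most of it (1.82, limma adjusted p = 0.385). Scgb3a1, a secretoglobin of the larger airways, was at 0.95 (0.387).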
